A study of Mus musculus with 96 samples.

Results

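The genes described here are the Cyp2a, Cyp2b, Cyp2c, Cyp2d, Cyp2g and Cyp2j members of the cytochrome P450 family 2 in mouse liver. They were chosen by a rule on the symbol, set with earlier results of these data known. It takes every listed gene whose name is one of these subfamily stems followed by a number and no pseudogene suffix. The rule found 41 of the 24066 genes with a single entry in the expression tables, namely 4 Cyp2a, 5 Cyp2b, 15 Cyp2c, 9 Cyp2d, 1 Cyp2g and 7 Cyp2j genes. Another 10 listed Cyp2 genes, Cyp2e1 and Cyp2f2 among them, fell outside the rule.

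Cytochrome P450 enzymes of family 2 sit in the membrane of the endoplasmic reticulum, take electrons from the reductase Por, and insert oxygen into drugs, steroids, bile acids and fatty acids. They carry a heme group whose synthesis begins with Alas1, and many are switched on by the nuclear receptors Nr1i3 (CAR) and Nr1i2 (PXR) when foreign compounds reach the hepatocyte. In mouse liver the family is known for sex-biased expression that follows the pattern of growth hormone release, for low activity before birth, and for daily rhythms linked to the clock output factors Dbp, Tef and Hlf.

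Poly(A) RNA from liver was sequenced in 96 libraries of C57BL/6J mice, with 3 libraries in each of 32 groups, which are 8 arms sampled at ZT0, ZT6, ZT12 and ZT18 (hours after lights on, every 6 h). Pregnant mothers were kept either under 12 h light and 12 h dark (control schedule) or under a chronic phase shift in which the light phase was advanced by 8 h every 5 days during pregnancy only (shifted schedule), and livers of these mothers and of fetuses from both schedules make up 4 arms. The other 4 arms are male offspring of control or shifted mothers that ate a low-fat or high-fat diet ad libitum for 12 weeks from 4 weeks of age. The labels do not state how far gestation had gone, whether fetal livers were pooled or which sex they were, how old the mothers were, or which young belonged to which mother. They also do not say whether the 3 libraries of a group came from separate animals, so the p-values measure only the spread between these libraries.

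Values are FPKM, fragments per transcript length and per total of mapped fragments of the library, rescaled by median-of-ratios factors within mothers, fetuses and offspring. Levels are given per length and can be set side by side between genes, while a fold or log2 difference always compares the same gene between groups. Within 2 groups a pair of libraries was near-identical (low-fat offspring of control mothers at ZT6, and of shifted mothers at ZT12), and each pair was averaged and counted as 1 sample, which leaves 94 samples and 11 in each of these arms. Depth relative to the series' median ran from 0.35 to 1.46, with the lowest value in a control fetus at ZT0. It was estimated from the smallest values, only 42.1% of which lay within 10% of a single step, so it is rough, and it gave no estimate for replicate 1 at ZT0 of the high-fat offspring of control mothers. In 5 offspring libraries the median correlation with the rest of their arm was under 0.95 (0.886 to 0.948), namely replicate 2 at ZT0 of the low-fat offspring of control mothers, replicates 1 at ZT0 and ZT6 of the low-fat offspring of shifted mothers, and replicate 1 at ZT0 and replicate 2 at ZT12 of the high-fat offspring of control mothers. The hepatocyte markers Alb, Ttr, Apoa1, Apob, Tat and Cps1 were present in every arm, and summed erythroid markers were 1342 to 3212 FPKM in fetuses against 11.6 to 62.8 FPKM in mothers. In these bulk samples, fewer cells of a type and less RNA per cell cannot be told apart.

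Of the 41 genes, 31 reached a mean of 1 FPKM in at least 1 arm: 4 Cyp2a, 3 Cyp2b, 12 Cyp2c, 8 Cyp2d, 1 Cyp2g and 3 Cyp2j. The other 10 stayed under 1 FPKM in every arm, 8 of them under 0.1 FPKM (Cyp2b19, Cyp2b23, Cyp2c65, Cyp2c66, Cyp2d34, Cyp2j11, Cyp2j12 and Cyp2j13) and the remaining pair being Cyp2c55 and Cyp2j8. The genes form 4 blocks on GRCm38: Cyp2a, Cyp2b and Cyp2g on chromosome 7, Cyp2c on chromosome 19, Cyp2d on chromosome 15 and Cyp2j on chromosome 4. Many are close copies, so reads could be credited to the wrong neighbour. Among stretches of 50 bases, Cyp2c40 shared 72.1% of its transcript with other genes, Cyp2c69 54.8%, Cyp2c67 52.8%, Cyp2c68 43.3%, Cyp2a5 40.8%, Cyp2d10 40.5% and Cyp2a4 38.0%, whereas Cyp2b10 shared 9.69%, Cyp2j5 0.174%, and Cyp2c44 none. Values of the high-sharing genes are uncertain in that respect. Cyp2d13 is a transcribed pseudogene in RefSeq.

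In mothers on the control schedule the 41 genes together summed to 5575 ± 950 FPKM (SD, n = 12), which was 1.01% of a library's FPKM. The same sum was 1245 ± 650 FPKM (0.173%, n = 12) in control fetuses and 3568 ± 780 FPKM (0.559%, n = 11) in low-fat male offspring of control mothers. The makeup differed as well as the total. Mothers held 2153 ± 860 FPKM of Cyp2a transcripts and 2164 ± 270 of Cyp2c, fetuses 60.3 ± 28 and 731 ± 420, and low-fat male offspring 578 ± 180 and 1204 ± 370. Cyp2d transcripts came to 966 ± 110 FPKM in mothers, 441 ± 210 in fetuses and 1649 ± 380 in low-fat male offspring, where they formed the largest subfamily. Cyp2b transcripts came to 189 ± 55 FPKM in mothers, 3.21 ± 1.3 in fetuses and 0.798 ± 1.6 in these offspring.

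**Figure D1:**
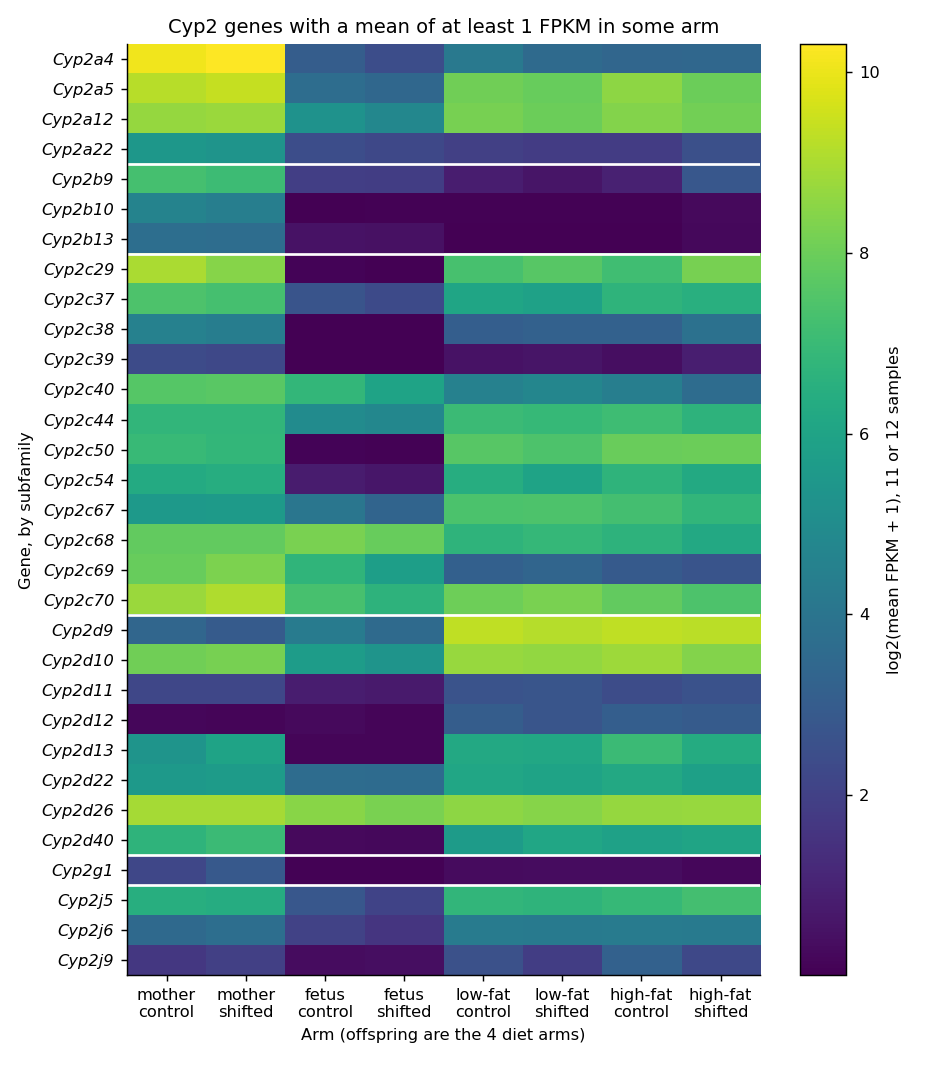
Heat map of the 31 Cyp2 genes that reached a mean of 1 FPKM in some arm (rows, by subfamily) across the 8 arms (columns); colour gives log2(mean FPKM + 1) over the 11 or 12 samples of an arm. Brighter colours are higher values. The fetal columns are dark for most rows, with Cyp2c68 and Cyp2d26 the brightest. Cyp2a4, Cyp2b9 and Cyp2c69 are bright in mothers and darker in male offspring, the reverse of Cyp2d9.

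The leading gene of a subfamily differed between stages. Mothers on the control schedule carried Cyp2a4, a steroid hydroxylase, at 1106 ± 470 FPKM, Cyp2b9 at 154 ± 47, Cyp2c29 at 514 ± 65, Cyp2d26 at 487 ± 64, Cyp2g1 at 3.59 ± 2.0 and Cyp2j5 at 86.7 ± 11 (n = 12 each) as the highest of their subfamilies. Control fetuses had Cyp2a12 (36.8 ± 18 FPKM), Cyp2b9 (2.76 ± 1.3), Cyp2c68 (304 ± 140), Cyp2d26 (358 ± 160) and Cyp2j5 (6.01 ± 5.2) in these places. In low-fat male offspring of control mothers Cyp2a12 stood at 293 ± 38 FPKM beside Cyp2a5 at 266 ± 150, Cyp2c70 at 259 ± 150, Cyp2d9 at 644 ± 230 and Cyp2j5 at 111 ± 21 (n = 11). Cyp2a12 and Cyp2c70 both oxidise bile acids, and Cyp2j5 turns arachidonic acid into epoxides.

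Between control fetuses and control mothers, 31 members passed the filter (1 FPKM or more in at least 3 libraries), 11 of them through the mothers alone, so that their lower level in fetuses was fixed by the filter. These 11 were Cyp2b10, Cyp2b13, Cyp2c29, Cyp2c38, Cyp2c39, Cyp2c50, Cyp2c55, Cyp2d13, Cyp2d40, Cyp2g1 and Cyp2j9. Libraries did not overlap for 25 of the 31, all lower in fetuses, namely these 11 and another 14, and 0 were higher; over all genes under the same filter 61.5% did not overlap, 9.81% lower and 51.6% higher. This count is a description. Cyp2a4 stood 151-fold, Cyp2a5 50-fold and Cyp2a12 11.3-fold higher in mothers, Cyp2b9 55.7-fold and Cyp2j5 14.4-fold. Cyp2d40 (105 FPKM in mothers, 0.191 in fetuses) and Cyp2d13 (40 and 0.11) were near 0 in fetuses, so no ratio is given. The gap was narrower for Cyp2c44 (3.55-fold) and Cyp2c70 (2.78-fold). Several genes had fetal libraries listed at 0, among them Cyp2c29, at 514 ± 65 FPKM in mothers and 0 to 0.335 FPKM in fetuses, and Cyp2c50, Cyp2c38 and Cyp2g1. The 6 genes whose libraries overlapped were Cyp2c40, Cyp2c67, Cyp2c68, Cyp2c69, Cyp2d9 and Cyp2d26. Cyp2c68 was at 94.3 to 443 FPKM in control fetuses and 187 to 312 FPKM in mothers. Alb, the albumin gene, given for scale, was 38446 ± 13000 FPKM in control fetuses, 107661 ± 12000 in control mothers and 32352 ± 3000 in low-fat offspring of control mothers. Its part in these ratios was not tested.

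Between mothers and low-fat male offspring of control mothers, sex, age and pregnancy change together, so their parts cannot be told apart. Libraries did not overlap for 15 of 32 members, 2 higher and 13 lower in the male offspring, against 9.32% of all genes (6.56% higher and 2.76% lower). For 6 of the 15 the direction was fixed by the filter, 5 lower ones (Cyp2b9, Cyp2b10, Cyp2b13, Cyp2c39 and Cyp2g1) that passed through the mothers alone and Cyp2d12, which passed through the offspring alone. The higher pair was Cyp2d9, a male-typical testosterone hydroxylase, at 644 ± 230 FPKM in offspring (55.2 to 898) and 9.73 ± 5.0 in mothers (4.75 to 22.1), a 66.2-fold ratio, and Cyp2d12, at 7.29 ± 2.8 FPKM and 0.129 FPKM. The lower genes included members known for female-typical expression: Cyp2a4 was 65.5-fold, Cyp2c69 30.3-fold and Cyp2c40 8.78-fold higher in mothers, and Cyp2b9 was at 75.8 to 217 FPKM in mothers and 0 to 4.01 in male offspring. Cyp2b13, the other Cyp2b gene known for female-typical expression, averaged 12.2 FPKM in mothers and at most 0.155 FPKM in each male arm. Cyp2g1 (3.59 FPKM in mothers, 0.229 in offspring) and Cyp2c39 (4.17 and 0.427) were lower in the offspring. Cyp2a22 (14.8-fold), Cyp2c29 (3.28-fold), Cyp2c38 (2.94-fold), Cyp2c68 (2.2-fold) and Cyp2a12 (1.42-fold) were also lower in the offspring, as was Cyp2b10. With values as deposited the count was 14 (3 higher, 11 lower), and without the 5 poorly correlated offspring libraries it was 17 (4 higher, 13 lower).

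One of these 5 libraries, replicate 2 of the low-fat offspring of control mothers at ZT0, had a Cyp2 profile unlike its arm. It held Cyp2a4 at 98.3 FPKM where the other 10 samples had 1.21 to 13.4, and Cyp2d9 at 55.2 where the others had at least 502. Cyp2c29 was at 22.4, Cyp2c50 at 10.7 and Cyp2c37 at 2.53 FPKM in it, Cyp2b9 at 4.01, and the pericentral marker Cyp2e1 at 334 FPKM. The cause was not tested, and results that rest on these 5 libraries are given below with and without them.

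In fetuses the level of some members differed widely from library to library. Over all 24 fetal libraries Cyp2c69 ran from 1.51 to 311 FPKM, a 205-fold range, Cyp2c37 from 0.118 to 22.6 (192-fold), Cyp2j5 from 0.252 to 13.9 (55.4-fold) and Cyp2c40 from 7.92 to 244 (30.8-fold). Other members had narrower ranges, with Cyp2c68 at 94.3 to 443 FPKM (4.7-fold), Cyp2d26 at 118 to 583 (4.92-fold), Cyp2c44 at 15.2 to 46.9 (3.1-fold) and Cyp2d22 at 6.47 to 18.9 (2.92-fold). The summed level was correlated with that of Alb in the same library. In control fetuses 3 libraries stood apart at low albumin (17618 to 21608 FPKM), with member sums of 311 to 394 FPKM, and they were 2 of the ZT0 libraries and 1 of the ZT12 libraries. In the other 9, with albumin at 35426 to 57629 FPKM and sums of 841 to 2219, Pearson's r on the log2 scale was 0.89 (exact permutation p = 0.0015, adjusted 0.0015) and Spearman's rho 0.9 (exact permutation p = 0.002, adjusted 0.002), and r was 0.83 without the 2 samples farthest from the median. In the 12 shifted fetuses, with albumin at 18151 to 50687 FPKM and sums of 347 to 1908, r was 0.95 (permutation p = 2e-05, adjusted 4e-05) and rho 0.92 (permutation p = 0.00011, adjusted 0.00022), and r without the 2 farthest samples was 0.91. These were the 2 relations computed, and both values of a point come from the same library. No other genes were set against Alb, so whether the relation is particular to Cyp2 genes was not tested. The split at 30000 FPKM of albumin was set on these same data and made in control fetuses only. Shifted libraries under it, down to 18151 FPKM, stayed in their relation, so the 2 r values rest on unlike sets.

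**Figure D2:**
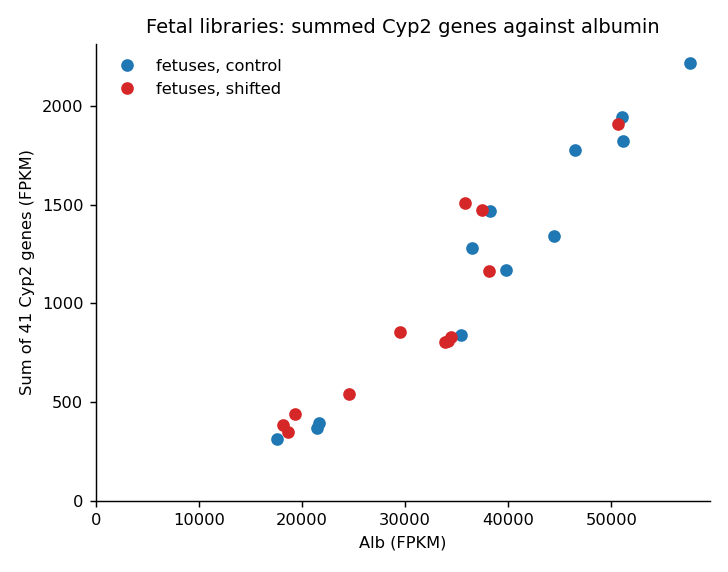
Summed FPKM of the 41 Cyp2 genes (vertical, linear scale) against albumin FPKM (horizontal, linear scale) in each of 24 fetal libraries, coloured by maternal schedule. The sums run from 311 to 2219 FPKM, and the 3 control libraries with albumin under 30000 FPKM lie at the lower left with sums of 311 to 394.

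The maternal schedule itself gave no call among the fetal members. The question was whether the shifted schedule altered the level, averaged over the 4 times of day, and it was put with limma on log2(FPKM + 1) with Benjamini-Hochberg adjustment over all genes tested, a scale on which folds of low genes are understated. Of 20 members tested, 0 passed an adjusted p of 0.05 and 1 had an unadjusted p under 0.05, where 3.78% of all genes passed (2.31% higher, 1.47% lower). The members with the smallest p were Cyp2j6 (3.1 FPKM in control and 2.03 in shifted fetuses; log2 difference -0.44 ± 0.21 SE, adjusted p = 0.23) and Cyp2a4 (-0.54 ± 0.33, adjusted p = 0.347). The members' median log2 difference was -0.37 against -0.01 over all genes, and albumin ranged over 18151 to 50687 FPKM in the shifted and 17618 to 57629 FPKM in the control fetuses.

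In mothers the shifted schedule came with small differences in 3 of 31 members tested, 2 higher and 1 lower, where 7.91% of all genes passed (3.49% higher, 4.42% lower). Cyp2c29, an enzyme known to respond to the receptor CAR and to make epoxides from arachidonic acid, was at 384 to 611 FPKM (median 522) in control mothers and at 86.5 to 581 (median 364) in shifted mothers. The ranges overlapped, and 10 of 12 shifted samples lay below the control mean of their time of day. The log2 difference was -0.73 ± 0.22 (1.66-fold lower, limma adjusted p = 0.0428). Cyp2g1, best known from the olfactory lining, was at 1.05 to 7.11 FPKM (median 3.02) in control and at 2.61 to 10.8 FPKM (median 5.92) in shifted mothers. It rose with 11 of 12 samples above the control mean of their time and a log2 difference of 0.74 ± 0.20 (1.67-fold, adjusted p = 0.032). Cyp2c69 rose from 241 ± 52 to 307 ± 62 FPKM (0.35 ± 0.11, 1.28-fold, adjusted p = 0.0498, 11 of 12 samples above).

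These 3 calls did not hold in all fits. Leaving out 1 of the 24 libraries at a time moved the adjusted p of Cyp2c29 between 0.0162 and 0.0719, that of Cyp2c69 between 0.0387 and 0.0862 and that of Cyp2g1 between 0.0147 and 0.0629, and the calls were lost in 16, 18 and 9 of the 24 fits, and without a filter on low values 0 members passed. In the same comparison 6 of 7 endothelial markers fell and 0 of 6 hepatocyte markers passed. Summed pericentral markers had a median of 1938 FPKM in control and 2442 in shifted mothers, and periportal markers 1211 and 989, with overlapping ranges. The part of these marker differences in the results was not tested. Of all called genes 44.1% were higher after rescaling and 9.64% with values as deposited, where 1 member was higher (Cyp2g1) and 1 lower (Cyp2c29). Of the genes listed as known for female-typical expression, Cyp2c69 alone passed. Cyp2a4 was at 1106 ± 470 FPKM in control and 1273 ± 440 in shifted mothers, Cyp2b9 at 154 ± 47 and 135 ± 41, and Cyp2c40 at 193 ± 53 and 204 ± 51.

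Male offspring were compared in a single fit of all 4 arms. High-fat diet in offspring of control mothers changed 3 of 29 members tested, 2 higher and 1 lower, where 9.1% of all genes passed (4.26% higher, 4.84% lower). Cyp2d13 rose from 74.8 ± 26 FPKM (37.8 to 115) on low-fat diet to 130 ± 57 (78.3 to 281) on high-fat diet, a log2 difference of 0.77 ± 0.24 (1.71-fold, adjusted p = 0.0343), with 11 of 12 samples above the low-fat mean of their time. Cyp2a12 rose from 293 ± 38 to 337 ± 56 FPKM (0.20 ± 0.07, 1.15-fold, adjusted p = 0.0449, 10 of 12 above), and Cyp2c55, a colon-typical gene at 0.894 ± 0.7 and 0.374 ± 0.26 FPKM, fell by 0.43 ± 0.12 on the log2 scale (adjusted p = 0.0201, 11 of 12 below). Without the 5 poorly correlated libraries the adjusted p of Cyp2d13 was 0.0887 and that of Cyp2c55 0.0751, so both calls were lost, while that of Cyp2a12 was 0.0194. The Cyp2a12 call was lost with values as deposited, in the fit of only the 2 arms compared and in 24 of 46 fits that each left out 1 sample (adjusted p up to 0.0991), and the share of all called genes that were higher went from 46.8% to 15.7% under that scaling. Among cell type markers 5 of 9 pericentral and 2 of 7 endothelial markers rose and 1 of 7 periportal and 1 of 5 cholangiocyte markers fell in the same comparison, and their part was not tested.

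In offspring of shifted mothers the same diet contrast changed 11 of 29 members, 5 higher and 6 lower, where 19.1% of all genes passed (9.2% higher, 9.91% lower). The members that rose were 1 each from Cyp2a, Cyp2b, Cyp2c, Cyp2d and Cyp2j. Cyp2b9 was at 0 to 2.39 FPKM (median 0.0906) on low-fat and 0.282 to 19.0 (median 2.91) on high-fat diet, a log2 difference of 1.82 ± 0.33 (adjusted p = 0.000209, 10 of 12 samples above the low-fat mean of their time). Cyp2j5 rose from 105 ± 25 to 149 ± 9.9 FPKM (0.52 ± 0.13, 1.44-fold, adjusted p = 0.00381, 12 of 12 above). Cyp2a22 (2.6 ± 1.4 to 4.76 ± 2.4 FPKM, adjusted p = 0.00201), Cyp2c38 (8.27 ± 5.6 to 13.4 ± 5.9, adjusted p = 0.0104) and Cyp2d26 (346 ± 54 to 426 ± 63, adjusted p = 0.028) rose as well.

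The 6 members that fell with high-fat diet in these offspring all belonged to Cyp2c. Cyp2c40 went from 25.9 ± 11 FPKM (9.7 to 42.8) to 11.4 ± 2.7 (7.72 to 16.2), with all 12 samples below the low-fat mean of their time and a log2 difference of -1.05 ± 0.21 (2.07-fold lower, adjusted p = 0.000606). Its close copies Cyp2c68 (117 ± 36 to 74 ± 17 FPKM, adjusted p = 0.00931), Cyp2c69 (9.4 ± 4.1 to 5.37 ± 0.92, adjusted p = 0.0192) and Cyp2c67 (174 ± 59 to 111 ± 14, adjusted p = 0.0303) fell with 12 of 12 samples below, and since these 4 genes share much of their sequence they are not 4 separate measurements. Cyp2c70, which makes the muricholic acids of mouse bile, fell from 299 ± 120 to 171 ± 86 FPKM (-0.81 ± 0.23, 1.75-fold lower, adjusted p = 0.0155, 10 of 12 below). Cyp2c44 fell by 0.28 ± 0.09 on the log2 scale (121 ± 41 to 102 ± 26 FPKM, adjusted p = 0.0253, 7 of 12 below) and lost its call with values as deposited, as did Cyp2c67. The share of all called genes that were higher was 48.1% after rescaling and 69.4% as deposited, where 5 members were higher and 4 lower. Among markers 1 of 6 hepatocyte markers rose and 3 fell, 2 of 9 pericentral, 1 of 7 periportal, 2 of 3 erythroid and 1 of 2 intestine markers rose, and 2 of 6 stellate, 2 of 5 cholangiocyte and 1 of 7 endothelial markers fell, with none of 7 macrophage markers called. Of adipose markers Cfd alone was tested and rose by a log2 difference of 3.09 ± 0.43 (adjusted p = 9.05e-06). The part of these markers was not tested.

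On low-fat diet, offspring of shifted mothers differed from those of control mothers in 0 of 29 members by limma, and 3 members had an unadjusted p under 0.05. The fit called 0.00922% of all genes, which is 1 gene. The smallest p belonged to Cyp2j9, at 4.94 ± 2.5 FPKM in offspring of control and 2.67 ± 1.3 in offspring of shifted mothers (log2 difference -0.71 ± 0.23, adjusted p = 0.597), followed by Cyp2a12 (293 ± 38 and 258 ± 38 FPKM, -0.16 ± 0.07, adjusted p = 0.694).

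On high-fat diet the same contrast changed 15 of 29 members, 6 higher and 9 lower in offspring of shifted mothers. This stands beside 46.8% of all genes in that comparison (25.6% higher, 21.2% lower), so a large share of the liver transcriptome was called between these arms. The members' median log2 difference was -0.14 against 0.01 over all genes.

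Cyp2c29 was the 1 member of 29 whose samples separated without overlap, as 3.13% of all genes did (2.05% higher, 1.08% lower). It was at 68.6 to 224 FPKM (median 131) in the 12 high-fat offspring of control mothers and at 249 to 377 (median 289) in the 12 of shifted mothers. Every sample of the second arm lay above every sample of the first. The log2 difference was 1.11 ± 0.26 (2.16-fold, adjusted p = 0.000717). In mothers the same gene fell under the shifted schedule, and in low-fat offspring it stood at 157 ± 81 FPKM after control and 200 ± 78 after shifted mothers, overlapping widely. The diet by maternal schedule interaction of Cyp2c29 was 0.62 ± 0.38 (adjusted p = 0.252).

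Cyp2b9, which encodes a steroid hydroxylase of female mouse liver, was at 0 to 3.86 FPKM (median 0.383) in high-fat offspring of control mothers and at 0.282 to 19.0 (median 2.91) in those of shifted mothers, a log2 difference of 1.48 ± 0.32 (2.78-fold, adjusted p = 0.000313, 10 of 12 samples above). By time of day the samples of the shifted arm were 1.59, 2.22 and 2.06 FPKM at ZT0, then 1.12, 5.89 and 0.92 at ZT6, 19.0, 18.2 and 3.59 at ZT12, and 0.282, 7.85 and 7.87 at ZT18. The high values came from 2 samples at ZT12, and the arm remained far under the 154 ± 47 FPKM of control mothers. Cyp2a22 rose from 2.53 ± 1.1 to 4.76 ± 2.4 FPKM (0.68 ± 0.15, 1.6-fold, adjusted p = 0.000598, 11 of 12 above).

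Cyp2j5, the arachidonic acid epoxygenase, was at 52.1 to 135 FPKM (median 124) after control and 131 to 162 (median 151) after shifted mothers, so that 11 of the 12 shifted samples lay above the highest control sample (0.37 ± 0.12, 1.29-fold, adjusted p = 0.0145). Cyp2c38 rose from 8.28 ± 4.0 to 13.4 ± 5.9 FPKM (adjusted p = 0.00823) and Cyp2c39 from 0.308 ± 0.24 to 0.823 ± 0.66 (adjusted p = 0.00223), each with 9 of 12 samples above the control mean of their time. Cyp2c39 reached 1 FPKM in 3 samples of the shifted high-fat arm, 1 of the shifted low-fat arm and 0 of either control arm. It passed the filter of at least 3 libraries only with the arm where it is high, so its rise is partly set by the filter. Of the 6 members that rose, 5 (Cyp2a22, Cyp2b9, Cyp2c29, Cyp2c38 and Cyp2c39) were also lower without overlap in low-fat male offspring than in control mothers, as were 5.58% of the 2778 genes that rose in this contrast. The same held for 3 of the 9 members that fell (Cyp2a12, Cyp2c40 and Cyp2c68), and for 0.697% of the 2297 genes that fell. Among all members tested for that stage difference it held for 13 of 32. For 5 of these 13, Cyp2b9 and Cyp2c39 among them, the direction was fixed by the filter, which they passed through the mothers alone.

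The members that fell in high-fat offspring of shifted mothers spanned Cyp2a, Cyp2c, Cyp2d and Cyp2j. Cyp2c44, an epoxygenase that lies apart from the main Cyp2c block, was at 90.2 to 194 FPKM (median 148) after control and 62.8 to 142 (median 97.6) after shifted mothers, with 12 of 12 samples below the control mean of their time (-0.46 ± 0.09, 1.38-fold lower, adjusted p = 6.17e-05). Cyp2d22 fell from 74.5 ± 15 to 56.8 ± 8.2 FPKM (-0.37 ± 0.08, adjusted p = 0.000179, 12 of 12 below), and Cyp2d10 from 441 ± 75 to 337 ± 56 (-0.39 ± 0.09, adjusted p = 0.000842, 11 of 12 below). Cyp2a12 fell from 337 ± 56 to 278 ± 51 FPKM (-0.28 ± 0.06, adjusted p = 0.00059) and Cyp2a5, which hydroxylates coumarin and nicotine, from 375 ± 230 to 252 ± 140 (-0.53 ± 0.18, 1.44-fold lower, adjusted p = 0.0181), each with 12 of 12 samples below. Cyp2c40 (20.1 ± 6.8 to 11.4 ± 2.7 FPKM, adjusted p = 0.0044), Cyp2j9 (8.25 ± 9.2 to 3.78 ± 1.2, adjusted p = 0.011), Cyp2d13 (130 ± 57 to 80.4 ± 23, adjusted p = 0.0215) and Cyp2c68 (adjusted p = 0.0324) completed the set. The Cyp2d13 call was lost without replicate 2 of the high-fat control offspring at ZT12, which held the highest Cyp2d13 (281 FPKM) and Cyp2j9 (36.7 FPKM) of its arm.

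**Figure D3:**
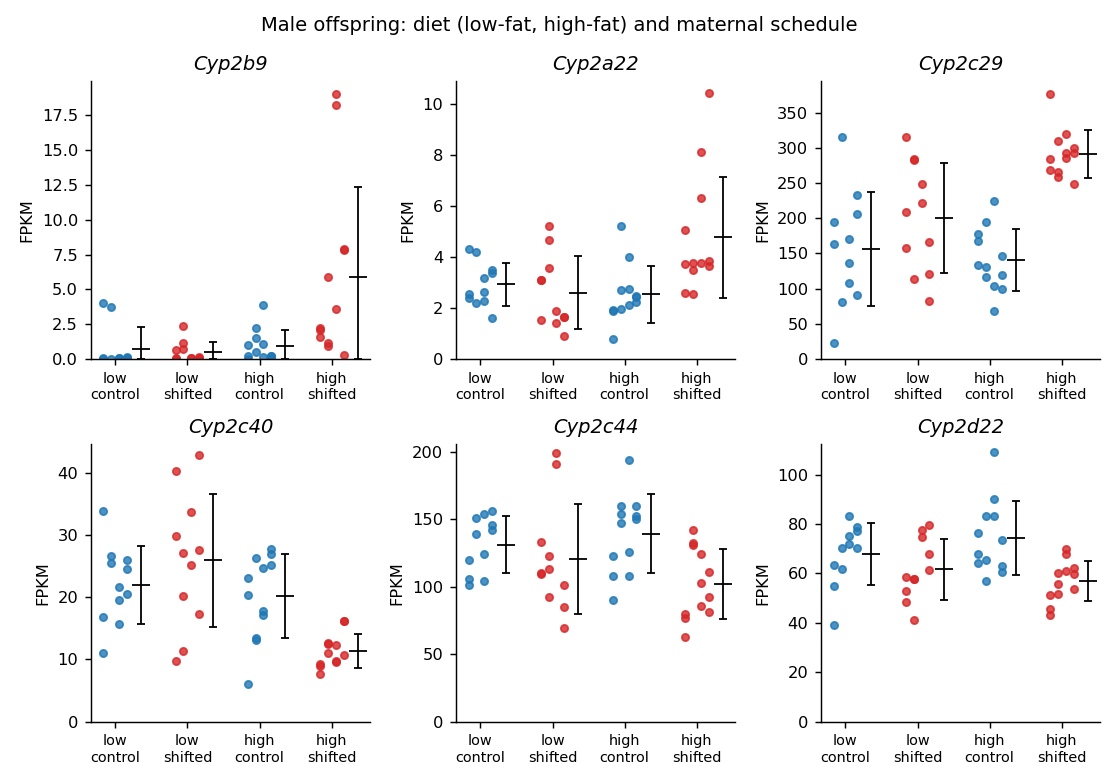
FPKM of Cyp2b9, Cyp2a22, Cyp2c29, Cyp2c40, Cyp2c44 and Cyp2d22 (1 panel each, vertical axis in FPKM) in the 4 offspring arms, with 1 point per sample in the order of time of day and the mean ± SD in black. In the Cyp2c29 panel the 12 high-fat samples of shifted mothers sit at 249 to 377 FPKM, all above the 68.6 to 224 of the high-fat samples of control mothers.

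How many members passed in each direction depended on the scaling, although the difference of none of the 15 called members changed sign. With values as deposited, the median log2 difference of all genes between the high-fat arms was 0.21 and 85% of all called genes were higher, against 54.7% after rescaling. The members then gave 9 higher and 2 lower: Cyp2c40 and Cyp2j9 were still called lower, while Cyp2c44 (adjusted p = 0.0906), Cyp2d22 (0.161), Cyp2a12 (0.882), Cyp2d10 (0.184), Cyp2a5 (0.209), Cyp2d13 (0.133) and Cyp2c68 (0.401) lost their calls. The rescaled falls are therefore falls relative to the median gene of these libraries. Among markers in the same contrast, 2 of 6 hepatocyte markers rose and 2 fell, 2 of 3 erythroid markers rose, 1 of 9 pericentral, 3 of 7 endothelial and 1 of 5 cholangiocyte markers fell, periportal (1 of 7 up, 1 down), macrophage (1 of 7 up, 2 down) and stellate markers (2 of 6 up, 1 down) went both ways, 1 of 2 lymphocyte, 1 of 2 intestine and 1 of 1 pancreas markers tested fell, and Cfd rose (1.45 ± 0.42, adjusted p = 0.00538); summed adipose markers were 0 to 37.8 FPKM (median 0.924) and 0.443 to 38.8 FPKM (median 10.7), with Adipoq, Plin1 and Lep under 0.1 FPKM. Their part was not tested.

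Whether the diet effect itself differed by maternal schedule was tested as an interaction, and 3 of 29 members passed, where 17.6% of all genes did (10.1% positive, 7.49% negative); another 8 members had an unadjusted p under 0.05. Diet raised Cyp2a22 in offspring of shifted mothers (2.6 ± 1.4 to 4.76 ± 2.4 FPKM), while offspring of control mothers had 2.93 ± 0.85 on low-fat and 2.53 ± 1.1 on high-fat diet (difference of log2 differences 0.90 ± 0.22, adjusted p = 0.00753). For Cyp2b9 the interaction was 1.59 ± 0.46 (adjusted p = 0.018), and for Cyp2c40, at 22.0 ± 6.3 and 20.1 ± 6.8 FPKM after control mothers, it was -0.86 ± 0.29 (adjusted p = 0.0376). The next members were Cyp2c44 (-0.35, adjusted p = 0.0549) and Cyp2j5 (0.47, adjusted p = 0.0654). Without the 5 poorly correlated libraries 8 members passed, and as deposited 6 members passed, all positive, at a median of 0.17 over all genes. The Cyp2c40 call was lost in 15 of 46 fits that each left out 1 sample.

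Members listed as female-typical were called in both directions in the offspring. Of those listed as CAR-responsive, Cyp2c29 was called higher between the high-fat arms. Cyp2c55 was called lower in another contrast, high-fat diet after control mothers, where 9.1% of all genes passed. Both lists were drawn from background knowledge with earlier results of these data known, and the counts depend on which genes they hold. Of the 5 genes listed as female-typical (Cyp2a4, Cyp2b9, Cyp2b13, Cyp2c40 and Cyp2c69), 4 were tested in offspring. Between the high-fat arms, where 46.8% of all genes passed, 1 of these 4 rose (Cyp2b9) and 1 fell (Cyp2c40). Their median log2 difference was -0.08 against 0.01 over all genes. With high-fat diet after shifted mothers, where 19.1% of all genes passed, 1 of these 4 rose (Cyp2b9) and 2 fell (Cyp2c40 and Cyp2c69), and Cyp2b9 and Cyp2c40 passed for the interaction. Cyp2d9, known for male-typical expression, was at 644 ± 230 and 580 ± 190 FPKM on low-fat diet after control and shifted mothers and at 644 ± 200 and 615 ± 170 on high-fat diet, and passed in none of the offspring level contrasts (adjusted p 0.718 to 0.996). Of the 4 CAR-responsive genes (Cyp2b10, Cyp2c29, Cyp2c37 and Cyp2c55), 3 were tested in offspring and Cyp2c29 alone was called between the high-fat arms. Cyp2c37 was at 105 ± 39 FPKM after control and 90.5 ± 36 after shifted mothers there (-0.26 ± 0.34, adjusted p = 0.539), and Cyp2b10 stayed at means of 0.0349 to 0.204 FPKM in all 4 offspring arms.

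Time of day was called most often for Cyp2a5, and the promoters of this gene and 3 neighbours on chromosome 7 are shown to set the near-identical starts of Cyp2a5 and Cyp2a4 beside those of Cyp2b10 and Cyp2a12. The windows are the 250 bases before the RefSeq start on GRCm38.p6, plus strand: Cyp2a5 at chr7:26835089-26835338, Cyp2a4 at chr7:26306942-26307191, Cyp2b10 at chr7:25897408-25897657 and Cyp2a12 at chr7:27028840-27029089. Capitals mark TTGCATAA, searched with its other-strand form TTATGCAA as a site type of C/EBP and PAR bZIP factors such as Dbp, and the TATA box letters TATAAA.
Cyp2a5: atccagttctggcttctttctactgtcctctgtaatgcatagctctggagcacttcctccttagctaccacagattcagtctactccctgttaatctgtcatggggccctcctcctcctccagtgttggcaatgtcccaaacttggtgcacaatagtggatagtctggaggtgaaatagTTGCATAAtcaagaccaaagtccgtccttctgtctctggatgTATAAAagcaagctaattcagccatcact
Cyp2a4: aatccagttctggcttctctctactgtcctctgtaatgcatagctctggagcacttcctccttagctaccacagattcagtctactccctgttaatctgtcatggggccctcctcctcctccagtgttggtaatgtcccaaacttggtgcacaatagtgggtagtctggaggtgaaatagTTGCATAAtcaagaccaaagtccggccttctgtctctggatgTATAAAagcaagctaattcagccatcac
Cyp2b10: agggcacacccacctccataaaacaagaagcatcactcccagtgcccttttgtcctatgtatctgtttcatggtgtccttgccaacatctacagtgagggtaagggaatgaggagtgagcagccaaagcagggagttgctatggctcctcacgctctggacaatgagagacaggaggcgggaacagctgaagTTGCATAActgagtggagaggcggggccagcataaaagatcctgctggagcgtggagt
Cyp2a12: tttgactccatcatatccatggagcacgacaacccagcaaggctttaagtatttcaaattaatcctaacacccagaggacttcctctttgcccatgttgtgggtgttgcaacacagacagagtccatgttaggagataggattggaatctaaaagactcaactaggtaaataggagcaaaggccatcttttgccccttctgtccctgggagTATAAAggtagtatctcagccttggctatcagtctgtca
The first site begins 71 bases before the start in Cyp2a5, 70 in Cyp2a4 and 58 in Cyp2b10, and the Cyp2a12 window lacks it. The Cyp2a5 and Cyp2a4 windows were identical at 245 of 249 aligned bases (98.4%), Cyp2a5 and Cyp2a12 at 73 of 248 (29.4%).

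RefSeq held such windows for 34 of the 41 genes (36 windows). The letters TTGCATAA or TTATGCAA were in 5 of them (Cyp2a4, Cyp2a5, Cyp2b10, Cyp2b19 and Cyp2b23), against 0.694% of the 32851 windows of all genes. The D-box letters TTANGTAA or TTACNTAA were in Cyp2c38 alone (2.06% of all windows), the E-box CACGTG in Cyp2j6 alone (6.02%), and TATAAA or TTTATA in 17 member windows (12.4%). Both strands were searched, and no motif contains another. The motifs were chosen after the members' values had been seen, and a match describes letters only.

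Cyp2a5 was the single member of 31 whose level changed with time of day in control mothers (limma F test over the 4 times, F = 12.72, adjusted p = 0.0251), where 4.28% of all genes passed. Its values were 169, 156 and 255 FPKM at ZT0, 656, 409 and 132 at ZT6, 1051, 1095 and 1263 at ZT12, and 569, 705 and 594 at ZT18. The 3 ZT12 samples were the highest of the arm, and the ZT12 mean of 1137 FPKM was 5.86-fold above the ZT0 mean of 194. One ZT6 sample, replicate 3, was low for Cyp2a5 (132 FPKM), for Cyp2a4 (494) and for Dbp (2.12 FPKM beside 30.4 and 19.7). The call was lost in 7 of 12 fits that each left out 1 library (adjusted p 0.000855 to 0.0873). Cyp2a4 had its ZT12 mean 2.57-fold over its ZT0 mean but did not pass (adjusted p = 0.129), and neither did Cyp2b10 (adjusted p = 0.0616).

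In shifted mothers 0 of 30 members passed the time test by limma, 3 had an unadjusted p under 0.05, and 0.717% of all genes passed. Cyp2a5 was at 785, 858 and 602 FPKM at ZT0, 380, 321 and 268 at ZT6, 550, 941 and 895 at ZT12, and 528, 1023 and 885 at ZT18 (F = 9.56, adjusted p = 0.127). Its 3 lowest samples were now those at ZT6, and every ZT0 sample lay above every ZT0 sample of control mothers. Cyp2a4 had F = 5.64 (adjusted p = 0.331).

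The profiles over time differed between the schedules for 1 of 31 members, Cyp2b10 (interaction F = 8.76, adjusted p = 0.0463), where 1.64% of all genes passed. Cyp2b10, the classic target of CAR, was lowest at ZT6 in control mothers (13.2, 14.3 and 9.54 FPKM, beside 32.3, 27.0 and 23.4 at ZT0, 38.3, 27.7 and 16.5 at ZT12, and 23.4, 26.0 and 31.7 at ZT18). In shifted mothers ZT6 was highest (47.4, 32.6 and 42.0 FPKM), with 25.1, 10.5 and 8.98 at ZT0, 14.0, 13.3 and 7.87 at ZT12, and 11.6, 24.6 and 2.8 at ZT18. The ZT6 samples of the 2 schedules did not overlap. The call was lost in 18 of 24 fits that each left out 1 library (adjusted p 0.00731 to 0.142). Cyp2a5 came next (F = 7.62, adjusted p = 0.0704).

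**Figure D4:**
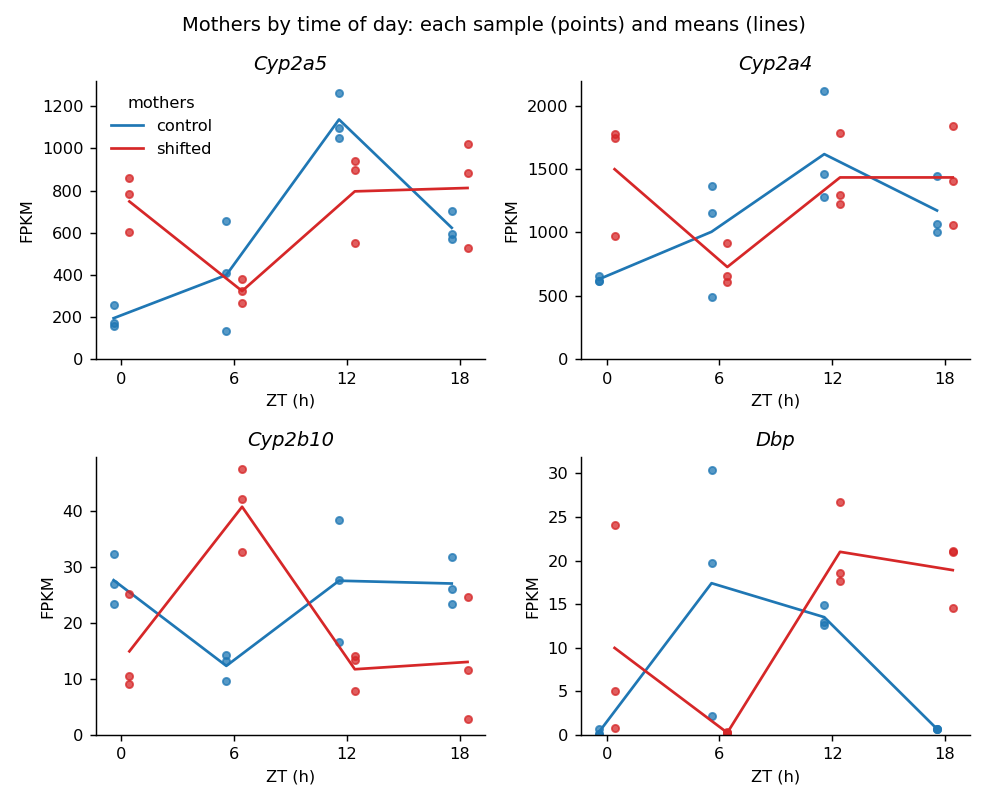
FPKM of Cyp2a5, Cyp2a4, Cyp2b10 and Dbp (1 panel each) in mothers at ZT0, ZT6, ZT12 and ZT18 (horizontal, h), control schedule in blue and shifted schedule in red, with 1 point per sample and lines through the means. Cyp2b10 is lowest at ZT6 in control mothers (9.54 to 14.3 FPKM) and highest at ZT6 in shifted mothers (32.6 to 47.4).

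Dbp, a clock output factor, also differed in profile between the schedules. It was at 0.112, 0.666 and 0.0956 FPKM at ZT0 and 12.6, 13.0 and 14.9 at ZT12 in control mothers, and at 0.804, 5.0 and 24.1 at ZT0 and 0.342, 0.169 and 0.19 at ZT6 in shifted mothers. The time by schedule interaction (limma F test) passed for the PAR bZIP genes Tef (adjusted p = 7.44e-05), Dbp (0.00211) and Hlf (0.0145), and for Nfil3, which was listed with them. It passed also for Alas1 (0.00519), Por (0.00816) and Nr1i2 (0.0485), but not for Nr1i3 (0.822).

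In male offspring Cyp2a5 was the member that passed the time test in all 4 arms, each fitted alone, with its lowest mean at ZT0 and its highest at ZT12 in every one. In low-fat offspring of control mothers 2 of 26 members passed, where 4.33% of all genes did: Cyp2a5 (79.5 FPKM at ZT0, 391 at ZT12, 4.92-fold, F = 18.73, adjusted p = 0.0191) and Cyp2c38 (4.39 FPKM at ZT18, 13.1 at ZT6, 2.98-fold, adjusted p = 0.0286). The Cyp2a5 samples there were 42.2, 151 and 45.5 FPKM at ZT0 and 396, 356 and 421 at ZT12, the 151 coming from the library with the unlike profile. Without the poorly correlated libraries the F of Cyp2a5 was 213.53 (adjusted p = 5.95e-05).

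In low-fat offspring of shifted mothers 7 of 27 members passed, where 12.4% of all genes did. Cyp2a5 went from 37.6 FPKM at ZT0 (33.9, 46.5 and 32.5, the first from a poorly correlated library) to 563 at ZT12 (513 and 613), a 15.0-fold span (F = 30.07, adjusted p = 0.00316). Cyp2a4 went from 1.71 FPKM at ZT0 (2.6, 1.51 and 1.02) to 22.7 at ZT6 (20.2, 28.1 and 19.8, the first again from such a library), a 13.3-fold span (F = 40.25, adjusted p = 0.00193). The other 5 were Cyp2d12 (adjusted p = 0.0215), Cyp2d40 (0.0236; 32.4 FPKM at ZT6, 104 at ZT18), Cyp2a22 (0.0253), Cyp2c44 (0.0307; 85.3 FPKM at ZT18, 195 at ZT12) and Cyp2c55 (0.0399). Without the poorly correlated libraries 4 members passed, and Cyp2a22 (0.0622) and Cyp2d12 (0.0558) were not among them. Cyp2a4 shares 36.1% of its transcript with the far higher Cyp2a5, so these 2 calls are not fully separate measurements.

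In high-fat offspring of control mothers 1 of 27 members passed, Cyp2a5 (117 FPKM at ZT0, 691 at ZT12, 5.91-fold, F = 23.76, adjusted p = 0.0114), where 0.753% of all genes did. Its samples were 91.9, 89.0 and 169 FPKM at ZT0 and 670, 806 and 598 at ZT12, where the 91.9 and the 806 came from poorly correlated libraries. Without these libraries the adjusted p was 0.0402, and 2 members passed. In high-fat offspring of shifted mothers 11 of 28 passed, where 30.3% of all genes did. Cyp2a5 went from 76.8 FPKM at ZT0 (60.1, 74.2 and 96.0) to 426 at ZT12 (459, 345 and 474), a 5.55-fold span (F = 38.23, adjusted p = 0.000392), and Cyp2a4 from 3.45 to 16.8 FPKM, a 4.87-fold span (F = 34.43, adjusted p = 0.000529). The other 9 members moved less, with spans of 1.38- to 1.94-fold. They included Cyp2c44 (adjusted p = 0.0105), Cyp2a12 (0.0108), Cyp2d22 (0.0162), Cyp2j9 (0.0179), Cyp2c69 (0.0255) and Cyp2c40 (0.0285). The Cyp2c69 call was lost in 5 of 7 other settings (adjusted p up to 0.882) and in 3 of 12 fits that each left out 1 library. The Cyp2c40 call was lost in 3 of 7 settings and in 8 of these 12 fits. With 24 h cosine and sine terms Cyp2c44 and Cyp2j9 also lost their calls, and Cyp2a12 did with values as deposited. The calls of Cyp2a5 and Cyp2a4 held in all 7 settings and 12 fits. These 2 genes are not fully separate measurements, since 36.1% of the Cyp2a4 transcript is shared with Cyp2a5. The part of Cyp2a5 reads credited to Cyp2a4 was not tested.

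**Figure D5:**
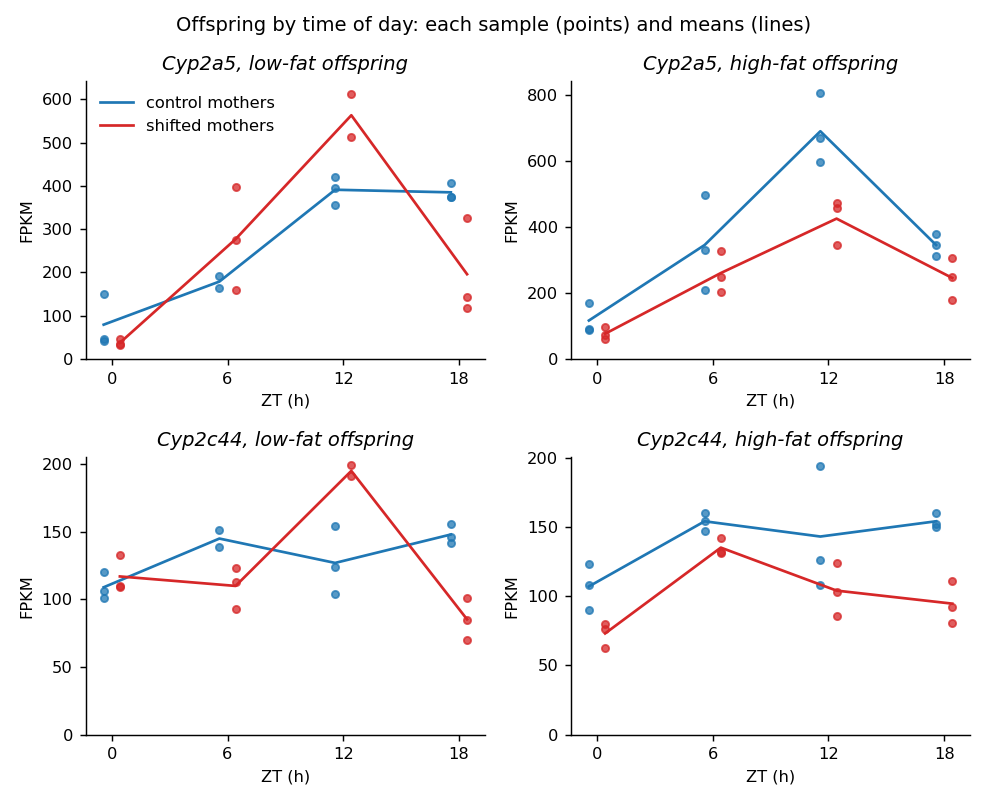
FPKM of Cyp2a5 and Cyp2c44 at ZT0, ZT6, ZT12 and ZT18 (horizontal, h) in male offspring on low-fat and high-fat diet, with points per sample and lines through the means for offspring of control and of shifted mothers. Cyp2a5 is lowest at ZT0 and highest at ZT12 in all 4 arms, with ZT12 means of 391, 563, 691 and 426 FPKM.

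None of the 4 contrasts between these profiles gave a member call by limma. Between maternal schedules on low-fat diet 0 of 29 members passed (5 at an unadjusted p under 0.05; 0.0% of all genes), and on high-fat diet 0 (1; 0.0%). Between diets it was 0 in offspring of control mothers (3; 0.0%) and 0 in offspring of shifted mothers (6; 0.0184%). Cyp2c44 had the smallest adjusted p in the low-fat contrast (F = 11.31, 0.0571). Its samples were 154, 124 and 104 FPKM at ZT12 and 142, 146 and 156 at ZT18 after control mothers, and 191 and 199 at ZT12 and 101, 69.7 and 84.9 at ZT18 after shifted mothers. The ZT12 samples were higher and the ZT18 samples lower after shifted mothers, with no overlap. Without the poorly correlated libraries Cyp2c44 and Cyp2a4 passed in this contrast (adjusted p = 0.0324 for both). The other 3 contrasts had as their smallest p Cyp2c38 and Cyp2d40 (0.614 for both), Cyp2d12 (0.323) and Cyp2d22 (0.33), and Cyp2c44 (0.0771) and Cyp2a22 (0.16).

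Genes that serve the Cyp2 enzymes were read from 4 lists: 9 microsomal partners and heme genes, 22 nuclear receptors and regulators (21 tested in offspring), 23 other P450 genes (20 tested in mothers and offspring, 16 in fetuses), and the PAR bZIP factors Dbp, Tef and Hlf together with Nfil3. Between high-fat arms of different maternal schedule 2 of 9 partners rose and 1 fell, in a contrast where 25.6% of all genes rose and 21.2% fell. Cyb5b, a cytochrome b5 of the mitochondrial membrane, rose by a log2 difference of 0.76 ± 0.13 (adjusted p = 2.1e-05), Fech, the last enzyme of heme synthesis, by 0.45 (adjusted p = 0.000168), while Cyb5a, the microsomal electron donor, fell by 0.42 (adjusted p = 0.00127) and Por did not pass (0.06, adjusted p = 0.802). Of 21 receptors 7 rose and 2 fell, with Rxra (0.44, adjusted p = 6.19e-05), Ppara (0.62, 0.000234) and Nr3c1, the glucocorticoid receptor (0.71, 0.000352), among those that rose. Nr1i3 did not pass there (-0.05 ± 0.26, adjusted p = 0.902). Of 20 other P450 genes 4 rose and 1 fell, the latter being Cyp1a2 (-0.93 ± 0.20, adjusted p = 0.000286). The share called in either direction was below the 46.8% of all genes in each of these 3 lists.

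With high-fat diet in offspring of shifted mothers, where 19.1% of all genes passed, 1 of 9 partners rose (Ephx1, 0.55, adjusted p = 0.0194) and 1, Cyb5r3, fell (-0.65, adjusted p = 0.000107), and 4 of 21 receptors rose, Nr1i3 among them (1.03 ± 0.27, adjusted p = 0.00814). In offspring of control mothers, where 9.1% of all genes passed, Nr1i3 had a log2 difference of 0.71 that did not pass (adjusted p = 0.0918). There 0 of 9 partners and 1 receptor, Cebpb, passed (1.01, adjusted p = 0.00829). Among other P450 genes 1 rose and 3 fell, Cyp3a11 furthest (-1.47 ± 0.32, adjusted p = 0.00455). On low-fat diet 0 of the partners differed by maternal schedule, where 0.00922% of all genes passed.

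In mothers, where 7.91% of all genes passed, 1 partner fell under the shifted schedule (Ephx1, -0.50, adjusted p = 0.0244) and 2 receptors rose (Esr1, 0.42, 0.0225, and Ghr, 0.80, 0.0244). Of the other P450 genes 1 rose and 4 fell, Cyp8b1 among them (-0.66, 0.0139), and Tef rose (0.51 ± 0.12, 0.0185). Nr1i3 (-0.05 ± 0.23, adjusted p = 0.912), Nr1i2 (0.14, 0.319), Por (0.11, 0.566), Alas1 (0.13, 0.619), Dbp (0.78 ± 0.35, 0.149) and Hlf (0.13, 0.267) did not pass. In fetuses, where 3.78% of all genes passed, 1 receptor or regulator fell, Cebpb (-0.59, adjusted p = 0.0311), and 0 of 16 other P450 genes passed. Over time of day in offspring, Dbp, Tef and Por passed the limma F test in all 4 arms (largest adjusted p 0.0087 for Dbp, 0.00608 for Tef and 0.032 for Por). Of all genes, 4.33% and 12.4% passed in low-fat offspring of control and shifted mothers, and 0.753% and 30.3% in high-fat offspring. Any link between these genes and the time course of Cyp2a5 was not tested.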

How the data were processed

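The authors deposited 1 table of FPKM values per arm, 8 in all; Cufflinks 2.2.1, TopHat2 2.1.1 and the mouse build mm10 are named in the submitters' processing notes, and the gene annotation is, like any filter, not given in the sources used here. Libraries were stranded poly(A) preparations from TRIzol extracts, per the labels' protocols. FPKM sums per library were 497208 to 804453, and as no counts were used, no counting interval is given. Of 24883 entries, 817 that share 280 symbols were left out. The members and lists were chosen with earlier results of these data known. Median-of-ratios factors rescaled each stage, and limma 3.58.1 (R 4.3.3, moderated tests with an intensity trend on log2(FPKM + 1)) fitted 1 mean per arm and time to genes at 1 FPKM or more in at least 3 libraries, with Benjamini-Hochberg adjustment over all genes tested and a threshold of 0.05. Level differences average the 4 times of day, and F tests address time. Stage comparisons carry no test. Scripts were tested on simulated data. Python 3.11.15, pandas 2.3.3 and SciPy 1.17.1 were used. Named members are those called with the smallest p (at most 8 per direction or per time test, or the 2 smallest where none passed), the highest of each subfamily and stage, and the members of the lists of sex-typical and CAR-responsive genes; other listed genes are named where called. Nr1i3, Nr1i2, Por, Alas1, Dbp, Tef and Hlf were named in any case. Alternatives changed the pseudocount, filter, scaling, arms in the fit, time model, replicate block, near-identical libraries, GC and length, and left out single libraries.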

Additional observations from a re-analysis of the deposited data

Results flagged for a closer look

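Among the offspring, 3 of 29 members had a diet effect that differed between maternal schedules by the interaction term (limma, adjusted over all genes). Of all genes 17.6% passed, a larger share than the members' 10.3%. Cyp2a22 had a difference of log2 diet effects, shifted minus control mothers, of 0.90 ± 0.22 (adjusted p = 0.00753), with high-fat means of 4.76 FPKM after shifted and 2.53 FPKM after control mothers. Its adjusted p ranged from 0.00235 to 0.0215 over the other settings. Cyp2b9 had a difference of 1.59 ± 0.46 (adjusted p = 0.018) and lost its call with a pseudocount of 0.1 (adjusted p = 0.0593) and without the averaged low-fat sample of control mothers at ZT6 (0.0643). Cyp2c40 had a difference of -0.86 ± 0.29 (adjusted p = 0.0376), which ranged from 0.00801 to 0.0756 when 1 sample was left out. In mothers the time profile of Cyp2b10 alone of 31 members differed between the schedules (limma F = 8.76, adjusted p = 0.0463), where 1.64% of all genes passed. The call was lost in 18 of 24 fits that each left out 1 library.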

How the results depend on the processing

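No level difference changed sign in any setting run, among the called members or, where none was called, the 2 of smallest p. The time tests have no direction, so they could not reverse. Without a filter on low values, 0 members passed for the level in mothers, time in control mothers and the time by schedule interaction in mothers, and time calls were 1 and 3 in low-fat offspring of control and shifted mothers and 7 in high-fat offspring of shifted mothers, with 1 call each for the time by maternal schedule contrast on low-fat diet and the time by diet contrast in offspring of shifted mothers. With values as deposited, 6 members passed for the diet by schedule interaction, 2 for time in control mothers and 6 for time in high-fat offspring of shifted mothers. Without the 5 poorly correlated libraries the counts were 8 for the interaction, 4 and 2 for time in low-fat offspring of shifted and high-fat offspring of control mothers, and 2 for the low-fat time contrast. A pseudocount of 0.1 gave 0 calls for the mothers' time interaction and 1 for the low-fat time contrast, upper quartile scaling 1 for the latter, and 24 h cosine and sine terms 0 and, in high-fat offspring of shifted mothers, 7. A fit of only the 2 arms compared gave 1 diet call in offspring of control mothers. The alternatives chosen after seeing the data, near-identical libraries kept apart and GC and length trends removed, gave 7 and 5 interaction calls and 1 and 1 in the low-fat time contrast; the former gave 1 in the time by diet contrast after shifted mothers, the latter 2 for control mothers' time and 7 for high-fat offspring of shifted mothers. The causes were not tested. Replicate numbers did not pair the samples (median correlation of same-numbered samples 0.0 in offspring, -0.052 in mothers, 0.039 in fetuses); with the replicate block 0 members passed for time in control mothers, where Cyp2a5 had an adjusted p of 0.0648, and 2 for the level in mothers.

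Leaving out 1 sample at a time, counts ranged from 0 to 4 for the level in mothers, 0 to 0 in fetuses, 1 to 5 and 7 to 14 for diet after control and shifted mothers, 0 to 0 and 14 to 17 for maternal schedule on low-fat and high-fat diet, and 1 to 7 for the interaction. For time they ranged from 0 to 2 in control and 0 to 0 in shifted mothers, 0 to 2 for the mothers' interaction, 0 to 4, 2 to 7, 0 to 1 and 5 to 14 in low-fat control, low-fat shifted, high-fat control and high-fat shifted offspring, and 0 to 2, 0 to 0, 0 to 1 and 0 to 2 for the low-fat, high-fat, control-mother and shifted-mother contrasts. The stage counts ranged from 25 to 26 and from 15 to 17. FPKM carry no read numbers, so calls for members near 1 FPKM, such as Cyp2c39, Cyp2c55 and Cyp2b9 in offspring, rest on few fragments of unknown number.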
